A study of Mus musculus with 12 samples.

Results

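The 8 genes described here encode proteins that make microRNAs or carry out their silencing: the scaffolds Tnrc6a, Tnrc6b and Tnrc6c, and the processing factors Drosha, Dgcr8, Xpo5, Dicer1 and Tarbp2. They were picked by name, with the fall of Tnrc6b in aged mice already known, and all 8 were found among the 23420 genes of the table. RNA had been sequenced from sorted bone marrow monocytic myeloid-derived suppressor cells (M-MDSCs, CD11b+Ly6G-Ly6Chi) of 12 male C57BL/6JNIA mice, each in a library of its own. Of these, 6 were young (6 months) and 6 were aged (24 months). M-MDSCs are immature myeloid cells that dampen T cell responses. The aged libraries held 8737941 to 16300374 counted fragments, and the young ones 4613239 to 9079237. Levels are given as counts per 1e+06 fragments (CPM) of a library total scaled by TMM, a factor that balances the libraries over most genes. Because the age comparison itself helped to choose the genes, its values are given for the 8 genes as a description and without p-values.

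A microRNA begins as a hairpin in a longer nuclear transcript. The Microprocessor, in which the nuclease Drosha works with the RNA-binding protein Dgcr8, releases the hairpin, Xpo5 (exportin 5) carries it to the cytoplasm, and Dicer1 with its partner Tarbp2 cuts out the mature strand. An Argonaute protein holds the mature strand and finds messenger RNAs by pairing with its seed, the bases from position 2 to position 8. The Tnrc6 proteins (GW182 family) bind Argonaute and recruit the deadenylases that shorten the poly(A) tail, after which the messenger is decapped and degraded. Mature microRNAs are too short for libraries of this kind, so the values below are those of messenger RNAs and of hairpin loci, not of mature microRNAs.

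Hairpins are annotated inside 3 of the genes, in exons of 2 of them. That of miR-5113 lies in an exon of Tnrc6b (chr15:80940039-80940120, mm10, plus strand), and that of miR-1306 lies in an exon of Dgcr8 (chr16:18284239-18284317, minus strand), a messenger that the Microprocessor is known to cut. Both are shown because they share their bases with an exon of one of the 8 genes. Their rows held 0 counts in the 12 mice, in a table made without fragments that overlap 2 genes, and how many fragments were left out for this reason is unknown. The RefSeq mature sequences (GRCm38.p6, the assembly of mm10) follow with the seed in capitals.
miR-5113: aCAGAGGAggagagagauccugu
miR-1306-5p: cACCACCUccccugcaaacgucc
miR-1306-3p: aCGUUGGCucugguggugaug
The 3 seeds differ from each other. The row of miR-693, in an intron of Xpo5, held 4 counts in all.

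The 3 scaffolds had the lowest values in aged mice relative to young mice. Tnrc6b (chr15:80711313-80941086, plus strand, 17528 bases of exon) stood at 705 CPM in the lowest, 784 in the median and 958 in the highest young mouse. In aged mice the corresponding levels of Tnrc6b were 318, 353 and 425 CPM, so every aged mouse lay below every young mouse. The mean was 361 ± 39.9 CPM in aged mice and 810 ± 93.0 CPM in young mice (SD, n = 6 each), a log2 fold change of -1.16 (SE 0.09, 95% interval -1.36 to -0.97), or 44.6% of the young level. These values rest on 2849 to 8829 fragments per mouse, the most of any of the 8 genes.

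Tnrc6a (chr7:123123885-123195296, plus strand, 8479 bases of exon) stood at 89.2, 99.9 and 185 CPM in the lowest, median and highest young mouse. Its aged levels were 47.0, 51.3 and 59.3 CPM, again without overlap. The young mice were uneven: replicates 5 and 6 had 185 and 164 CPM, while the other 4 young mice lay between 89.2 and 103 CPM. The log2 fold change of Tnrc6a was -1.22 (SE 0.17, 95% interval -1.59 to -0.85), and it was -1.06 without young replicate 5. Tnrc6c (chr11:117654289-117763441, plus strand, 8728 bases of exon) stood at 128, 149 and 179 CPM in young mice. In aged mice Tnrc6c reached 65.6, 69.8 and 90.7 CPM, and the ages did not overlap. Its log2 fold change was -1.0 (SE 0.10, 95% interval -1.21 to -0.78), or 50.01% of the young level.

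The processing factors differed less, and most of them overlapped between the ages. Drosha (chr15:12824815-12935291, plus strand, 4571 bases of exon), the nuclease of the Microprocessor, was counted in only 11 to 85 fragments per mouse. It stood at 2.36, 4.64 and 6.73 CPM in the lowest, median and highest young mouse and at 3.31, 3.80 and 6.13 CPM in aged mice. The aged range of Drosha lay inside the young range, and its log2 fold change of -0.07 had a wide 95% interval, -0.57 to 0.43. Dgcr8 (chr16:18253965-18289168, minus strand, 4225 bases of exon) stood at 17.8, 20.6 and 26.5 CPM in young mice and at 9.89, 15.6 and 17.6 CPM in aged mice. The highest aged mouse (17.6 CPM) and the lowest young mouse (17.8 CPM) nearly met. The log2 fold change of Dgcr8 was -0.53 (SE 0.14, 95% interval -0.83 to -0.23).

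Xpo5 (chr17:46202855-46242299, plus strand, 3709 bases of exon), the export factor, stood at 27.0, 31.1 and 35.0 CPM in young mice and at 23.0, 28.03 and 33.3 CPM in aged mice. The ages overlapped, with a log2 fold change of -0.12 (SE 0.10, 95% interval -0.32 to 0.09). Dicer1 (chr12:104687742-104751952, minus strand, 9851 bases of exon) stood at 48.3, 58.1 and 67.4 CPM in young mice and at 35.3, 45.5 and 55.8 CPM in aged mice. Here 3 aged mice reached the young range, and the log2 fold change was -0.33 (SE 0.11, 95% interval -0.57 to -0.10). Tarbp2 (chr15:102518192-102523676, plus strand, 1790 bases of exon), the double-stranded RNA-binding partner of Dicer1, rested on 15 to 69 fragments per mouse. It stood at 3.22, 3.99 and 4.67 CPM in young mice and at 2.65, 4.32 and 5.03 CPM in aged mice, with a log2 fold change of 0.01 (SE 0.17, 95% interval -0.35 to 0.38).

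**Figure D1:**
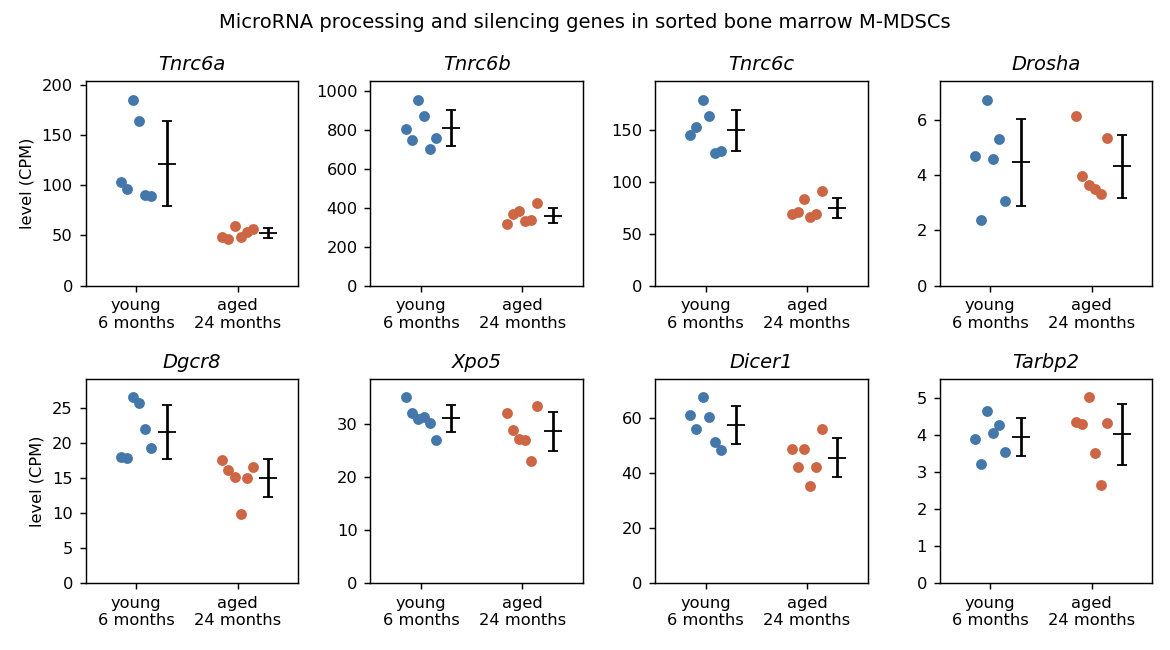
Level in CPM (linear axis from 0) of the 8 genes in each young (blue) and aged (orange) mouse, with the mean and SD of 6 mice in black. The points of the 2 ages are apart for Tnrc6a, Tnrc6b and Tnrc6c, nearly meet for Dgcr8 and overlap for Drosha, Xpo5, Dicer1 and Tarbp2.

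All 8 genes passed the filter on low counts. In the edgeR fit over 9742 genes, 5 of the 8 (the 3 scaffolds, Dgcr8 and Dicer1) had an adjusted p under 0.05 and lower levels in aged mice, where 23.0% of all genes tested did, and none was past the threshold in the other direction, where 22.4% were. In either direction 45.4% of all genes passed. All aged mice lay below all young mice for 4 of the 8 genes, against 12.1% of all genes tested, and for none of the 8 were all aged mice above all young mice, against 9.68%. Since the rule used this contrast, these counts only describe how the genes stand. Dicer1 was the gene nearest the threshold, and the count of 5 became 4 without aged replicate 2, 5 or 6 or young replicate 5, where its log2 fold change was -0.31, -0.27, -0.31 and -0.28. Dicer1 also missed the threshold after random thinning of every library to the lowest depth. In bulk samples such as these, fewer cells of a type and less RNA per cell cannot be told apart.

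The direction of change over all genes moved with gene length, and the exons of 7 of the 8 genes were longer than the median of 2890 bases. Across the 9742 genes the log2 fold change and the length had a Spearman correlation of -0.48, given as a description since genes share the same 12 libraries. Single libraries showed it too, as the Spearman correlation of a library's deviations from the gene means with length was -0.44 to -0.13 for the aged libraries and 0.17 to 0.43 for the young ones, so the ages did not overlap in it. The part of this length dependence in the fall of any single gene was not tested, but the genes can be set beside others of like length (0.8 to 1.2 times their own).

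Among the 38 genes of like length to Tnrc6b, the median log2 fold change was -0.80 and 81.6% were called lower, and 6 of them (15.8%) had a lower value than the -1.16 of Tnrc6b. Tnrc6a stood further out among its 621 genes of like length, whose median was -0.38, as only 18 of them (2.90%) had a lower value. Tnrc6c had 564 such genes with a median of -0.39, and 33 (5.85%) had a lower value. Dgcr8 had 2213 with a median of -0.10, and 276 (12.5%) had a lower value. Dicer1 was on the other side of its 364 neighbours in length. Their median was -0.47, and 232 of them (63.7%) had a lower value than the -0.33 of Dicer1. Drosha (58.7% lower, 2062 genes), Xpo5 (43.1%, 2358 genes) and Tarbp2 (33.1%, 1672 genes) stood in the middle of theirs.

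With each library corrected for its own dependence on length, the Spearman correlation over all genes was 0.02. The corrected log2 fold change was -0.76 (SE 0.14) for Tnrc6a, -0.54 (SE 0.07) for Tnrc6c and -0.28 (SE 0.05) for Tnrc6b. The order within the family was thus another one, with Tnrc6b last of the 3 after the correction. Dgcr8 kept most of its value at -0.40 (SE 0.13), while Dicer1 turned to 0.20 (SE 0.08). Drosha, Xpo5 and Tarbp2 had corrected values of 0.09, -0.04 and -0.13. After the correction 4 of the 8 genes were past the threshold and lower (Dicer1 was not), against 16.5% of all genes.

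**Figure D2:**
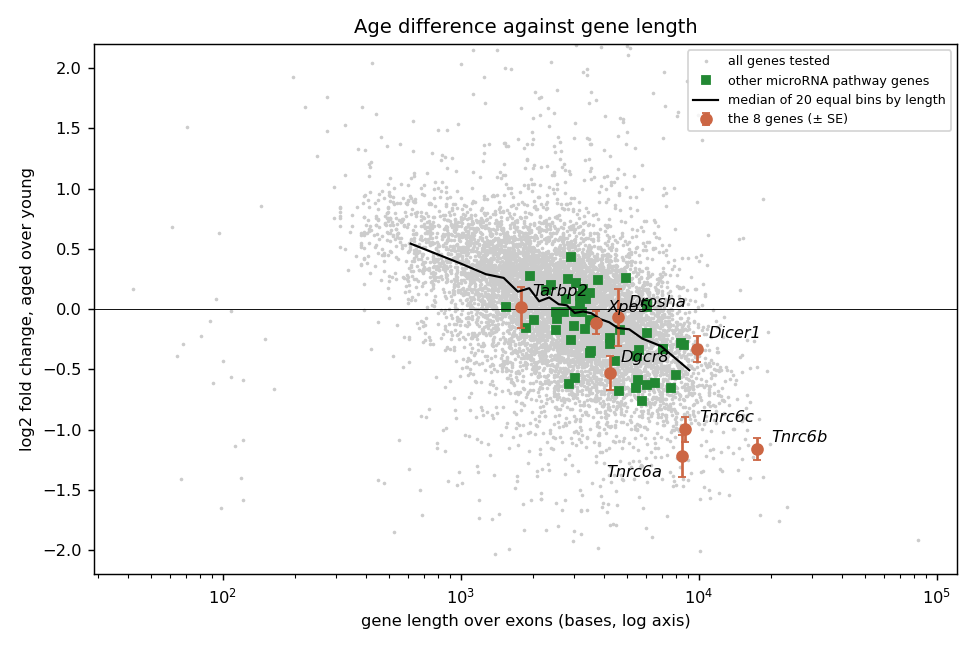
Log2 fold change of aged over young mice against exon length (log axis) for all genes tested (grey), the other microRNA pathway genes (green squares) and the 8 genes with their SE (orange), where 36 genes lie beyond the vertical range. The black line, the median in 20 bins of equal size, falls with length, and Tnrc6a and Tnrc6c lie far below it while Dicer1 lies above it.

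Before any correction for the length dependence of the libraries, the 3 scaffolds had similar proportions to each other in both ages. Tnrc6b took 72.5% to 77.6% of the fragments of the family in young mice and 73.0% to 75.9% in aged mice. Per length, its share was 56.4% to 63.1% in young mice and 57.0% to 60.8% in aged mice. Tnrc6c held 21.1% to 24.4% per length in young mice and 23.2% to 25.2% in aged mice. For Tnrc6a the share per length was 15.3% to 22.5% in young mice and 15.96% to 18.9% in aged mice. The ranges of the 2 ages overlapped for each scaffold. After the length correction the 3 log2 fold changes differed more, at -0.76 for Tnrc6a, -0.54 for Tnrc6c and -0.28 for Tnrc6b, and shares were not computed on that scale.

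Levels of different genes can be compared only per length, here as CPM per kilobase of exon within each mouse. The comparison was made within an age, which does not use the contrast that chose the genes. Differences in these levels or folds between the ages do use it and are only a description. Tnrc6b had the highest level in both ages, 46.2 ± 5.31 CPM per kilobase in young mice and 20.6 ± 2.28 in aged mice (SD, n = 6). Tnrc6c followed with 17.1 ± 2.27 in young mice and 8.55 ± 1.14 in aged mice. In the young mice the order then ran through Tnrc6a (14.3 ± 4.96), Xpo5 (8.36 ± 0.70), Dicer1 (5.82 ± 0.71), Dgcr8 (5.10 ± 0.91) and Tarbp2 (2.21 ± 0.29) to Drosha (0.98 ± 0.34). In the aged mice Xpo5 (7.70 ± 1.0) stood above Tnrc6a (6.17 ± 0.59), and Dicer1 (4.62 ± 0.72), Dgcr8 (3.56 ± 0.64), Tarbp2 (2.25 ± 0.46) and Drosha (0.94 ± 0.25) followed.

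Of the 28 pairs of genes, 27 had the same order in both ages, and the pair that did not was Xpo5 and Tnrc6a. In exact two-sided sign-flip permutation tests over the 6 mice of an age, with Benjamini-Hochberg adjustment over 56 pairs, 52 pairs differed. All 52 had the smallest p that 6 mice allow (0.03125, adjusted p = 0.0337 by the exact permutation test). The 4 pairs that did not pass were neighbours in the order. In young mice these were Tnrc6c over Tnrc6a (1.24-fold, higher in 4 of 6 mice, exact permutation adjusted p = 0.127) and Dicer1 over Dgcr8 (1.15-fold, 5 of 6 mice, exact permutation adjusted p = 0.0648). In aged mice they were Tnrc6c over Xpo5 (1.11-fold, 5 of 6 mice, exact permutation adjusted p = 0.156) and Xpo5 over Tnrc6a (1.24-fold, 5 of 6 mice, exact permutation adjusted p = 0.0648). The levels per length were not corrected for the length dependence of the libraries, which had opposite signs in young and aged mice. Tnrc6b exceeded Tnrc6c by 2.70-fold in young and by 2.42-fold in aged mice, and Drosha by 49.9-fold and 22.3-fold. Within the nuclear step, Drosha was therefore the less abundant messenger of the Microprocessor pair in every one of the 12 mice, and within the cytoplasmic step Tarbp2 stood below Dicer1.

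**Figure D3:**
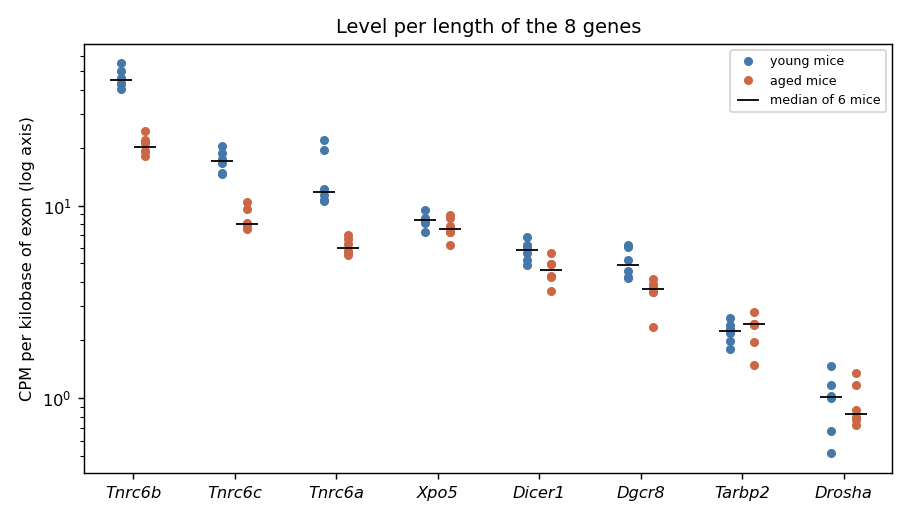
CPM per kilobase of exon (log axis) of the 8 genes in each young (blue) and aged (orange) mouse, ordered by the young mice, with the median of 6 mice as a black bar. Tnrc6b is highest and Drosha lowest in both ages, and the median of Xpo5 is above that of Tnrc6a in the aged mice only.

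Mice of the same age also differed in the level of Tnrc6b, and other genes varied with it. After subtraction of the mean of each age, the deviation of Tnrc6c in log2 CPM had a Pearson correlation of 0.90 with that of Tnrc6b over the 12 mice, the 23rd highest of all genes. The value was 0.77 for Tnrc6a and 0.71 for Dicer1, and 0.31 to 0.48 for Drosha, Dgcr8, Xpo5 and Tarbp2, beside a median of 0.00 over all genes. The points share libraries, and the length dependence of a library moved with them, at 0.76 between the deviation of Tnrc6b and that of the library's correlation with length. After the length correction the correlation with Tnrc6b was 0.19 for Tnrc6c, 0.28 for Tnrc6a and -0.43 for Dicer1. Without the 2 mice farthest from the median in Tnrc6b it was 0.78, 0.70 and 0.44.

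The 5 genes most like Tnrc6b in this measure were Prdm2 (0.96), Zfp608 (0.95), Map4 (0.95), Ncor1 (0.93) and Chd8 (0.93). Prdm2 encodes a histone methyltransferase, Ncor1 a nuclear receptor corepressor, Chd8 a chromatin remodeler and Map4 a microtubule-associated protein. All 5 were lower in aged mice past the threshold, where 23.0% of all genes and 70.3% of those of like length to Dicer1 were. The 5 log2 fold changes ran from -1.17 (Ncor1) to -0.46 (Chd8), and all 5 genes had exons of 6112 to 11549 bases. After the length correction their ranks in likeness were 47 (Prdm2), 70 (Zfp608), 305 (Map4), 245 (Ncor1) and 1206 (Chd8), so the list depended on that setting.

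**Figure D4:**
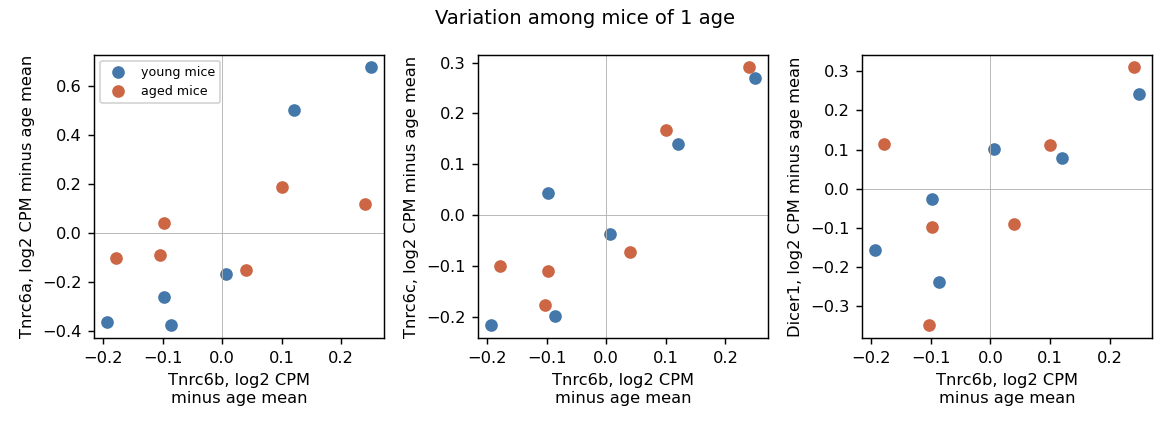
Deviation from the age mean in log2 CPM of Tnrc6a, Tnrc6c and Dicer1 (vertical axes) against that of Tnrc6b (horizontal axes), 1 point per young (blue) or aged (orange) mouse. Tnrc6c follows Tnrc6b most closely (0.90 over 12 mice), ahead of Tnrc6a (0.77) and Dicer1 (0.71).

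The promoters of the scaffolds were compared because these 3 genes were lower together. RefSeq windows of 300 bases around the start (GRCm38.p6) were searched on both strands for CCAAT, the letters of the CCAAT box bound by NF-Y, and for the GC box (GGGCGG), the TATA box (TATAAA) and the E-box (CACGTG), which do not overlap with it. The first window of Tnrc6b, the only one of a scaffold with CCAAT, and that of Tnrc6c are printed on the plus strand with the CCAAT matches in capitals (ATTGG is CCAAT read from the other strand). The window of Tnrc6b also held GGGCGG once, which is not marked.
Tnrc6b, chr15:80711063-80711362: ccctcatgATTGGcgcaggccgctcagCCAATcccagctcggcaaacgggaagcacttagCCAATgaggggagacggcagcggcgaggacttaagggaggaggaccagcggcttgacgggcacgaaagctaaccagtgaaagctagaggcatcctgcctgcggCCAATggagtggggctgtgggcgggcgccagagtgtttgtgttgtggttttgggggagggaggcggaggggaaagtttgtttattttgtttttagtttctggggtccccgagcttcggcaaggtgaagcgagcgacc
Tnrc6c, chr11:117654039-117654338: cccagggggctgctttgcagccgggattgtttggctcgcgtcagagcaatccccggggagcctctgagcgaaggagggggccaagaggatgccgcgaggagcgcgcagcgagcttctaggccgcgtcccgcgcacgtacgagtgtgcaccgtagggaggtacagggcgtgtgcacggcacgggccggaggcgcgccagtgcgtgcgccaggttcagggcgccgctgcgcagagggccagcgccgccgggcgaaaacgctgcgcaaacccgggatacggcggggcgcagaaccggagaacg
The window of Tnrc6b held CCAAT 4 times, as did that of Dgcr8, where 1.06% of 32851 promoter windows of this length held 4 or more and 37.4% held at least 1. Drosha and Tarbp2 had 3 each and Dicer1 had 1, while the windows of Tnrc6a, Tnrc6c and Xpo5 and the second start of Tnrc6b had 0. The 3 scaffolds thus shared none of these letters in their windows. They also differed in CpG content, with 11 CpG for Tnrc6a, 18 for Tnrc6b and 40 for Tnrc6c, against a median of 7 over all windows.

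Of the 55 other genes of the pathway in the list used here, 53 were tested, and Lin28b and Trim71 were too low. In aged mice 24 of them were lower (45.3%, against 23.0% of all genes), 3 were higher (5.66%, against 22.4%) and 26 were not called. Their median log2 fold change was -0.16, beside 0.01 over all genes, and their median length of 3482 bases was above that of all genes. After the length correction 14 were lower, 12 of them the same genes, and 5 were higher, where 16.5% of all genes were lower and 18.3% higher. The median was then -0.04 beside 0.02 over all genes. The calls below are from the edgeR quasi-likelihood test with Benjamini-Hochberg adjustment over all genes. The summed markers of resident macrophages moved with age as well, from 76.5 to 94.0 CPM in young and from 87.9 to 1108 CPM in aged mice with 8 of 8 genes higher, with and without the length correction. Their part in the pathway values was not tested.

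The Argonautes, which bind the microRNA and the Tnrc6 scaffold, were all 4 lower in aged mice. Ago2, the only one of them that cuts its targets, had 359, 389 and 411 CPM in the lowest, median and highest young mouse and 228, 255 and 300 CPM in aged mice. The ages did not overlap, and the log2 fold change was -0.55 (SE 0.07, edgeR adjusted p = 8.58e-05). Ago4 fell from 33.3 ± 3.59 to 21.6 ± 1.94 CPM, by 0.62 on the log2 scale (edgeR adjusted p = 0.000153), also without overlap. Ago3, the least abundant, fell by 0.65 (edgeR adjusted p = 0.0114) and Ago1 by 0.33 (edgeR adjusted p = 0.00776), both with overlap between the ages. After the length correction the value of Ago4 was -0.31 and passed the test, while those of Ago2 (-0.14), Ago3 (-0.27) and Ago1 (0.01) did not. Per length, Ago2 had 48.0 ± 2.60 CPM per kilobase in young and 32.8 ± 3.57 in aged mice (SD, n = 6), and the other 3 had means between 0.602 and 5.11.

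Of the 4 cofactors of the Microprocessor, 3 were lower. Ddx5, an RNA helicase, stood at 746 to 988 CPM in young mice and at 585 to 708 CPM in aged mice, and its log2 fold change was -0.34 (SE 0.08, edgeR adjusted p = 0.00308). Srrt, known as ARS2 and part of the cap-binding machinery that feeds the Microprocessor, fell by 0.57 (SE 0.18, edgeR adjusted p = 0.0177). The related helicase Ddx17 was also lower, but its call was lost in 7 of the 12 fits that left out 1 mouse, and after the length correction. Srsf3, a splicing factor that marks hairpins, had means of 64.9 CPM in young and 63.96 CPM in aged mice and was not called (log2 fold change -0.03).

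The 10 partners in export, dicing and loading had 1 lower and 1 higher gene, and 8 were not called. The chaperone Hsp90aa1, which helps to load Argonaute, fell by 0.62 (SE 0.18, edgeR adjusted p = 0.0104). Its co-chaperone Ptges3 (p23) rose by 0.28 (SE 0.09, edgeR adjusted p = 0.026), a call lost after the length correction. Ran, Prkra, Adar, Hsp90ab1, Tsn, Tsnax, Mov10 and Snd1 had log2 fold changes between -0.02 and 0.24, and Adar was called higher after the length correction (0.32). Of the 7 tested genes that control let-7 and tail microRNAs or their precursors, 3 were lower. Tut7 (listed as Zcchc6), a uridylyl transferase, stood at 371 to 483 CPM in young mice and at 248 to 307 CPM in aged mice (log2 fold change -0.59, SE 0.08, edgeR adjusted p = 9.42e-05). Zswim8, the receptor of the ubiquitin ligase that drives target-directed microRNA decay, fell by 0.63 (SE 0.13, edgeR adjusted p = 0.00154), without overlap between the ages, and Tut4 was the third. Tut4 lost its call after the length correction, while Tent2 gained one (-0.29). In the fit without that correction Lin28a, which blocks the processing of let-7, stood at 155 ± 12.1 CPM in young and 145 ± 18.3 CPM in aged mice and was not called, nor were Dis3l2 (0.05), Tent2 (-0.16) and Parn (0.43, edgeR adjusted p = 0.0685).

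Downstream of the scaffolds, 6 of the 14 genes of the CCR4-NOT and PAN2-PAN3 deadenylases and poly(A)-binding proteins were lower and 1 was higher. Pan3, the subunit through which the Tnrc6 proteins contact PAN2-PAN3, stood at 114 to 164 CPM in young mice and at 73.5 to 100.4 CPM in aged mice. Its log2 fold change was -0.68 (SE 0.10, edgeR adjusted p = 0.000178), and -0.51 after the length correction. Pabpc1, the main cytoplasmic poly(A)-binding protein, rose from 500 to 673 CPM in young mice to 700 to 749 CPM in aged mice, without overlap (log2 fold change 0.25, SE 0.08, edgeR adjusted p = 0.014). Cnot1, the scaffold of CCR4-NOT and a direct partner of the Tnrc6 proteins, was called lower at -0.28 but called higher at 0.15 after the length correction. Cnot2, Cnot3, Cnot6 and Pan2 were the other lower genes. After the correction 5 genes of this group were lower, with Cnot1 and Pan2 lost and Cnot8 gained (-0.19), and 2 were higher, Cnot1 and Pabpc1.

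Of the 14 genes of decapping, decay and translational repression, 7 were lower and 1 was higher. Gigyf2, which joins the cap-binding repressor Eif4e2, stood at 55.9 to 75.7 CPM in young mice and at 35.1 to 41.3 CPM in aged mice, with the lowest value of all 53 genes, -0.76 (SE 0.08, edgeR adjusted p = 1.79e-05), and -0.51 after the length correction. Its partner Eif4e2 rose by 0.26 (SE 0.08, edgeR adjusted p = 0.0182). Gigyf1, Xrn1, Dcp1a, Dcp2, Eif4enif1 and Patl1 were the other lower genes, with log2 fold changes from -0.65 to -0.24. In the length-corrected fit 2 genes of this group were lower, Gigyf1 (-0.42) and Gigyf2, and 2 were higher, Eif4e2 (0.44) and Ddx6 (0.29). Xrn1 (-0.16), Dcp1a (-0.10), Eif4enif1 (-0.16), Patl1 (-0.11) and Dcp2 (0.15) were then not called. Of the 27 calls in the pathway, 21 were made in each of the fits that left out 1 of the 12 mice, while those of Ddx17, Ptges3, Tut4, Cnot3, Cnot6 and Pan2 were lost in 7, 5, 10, 8, 6 and 7 of these fits.

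**Figure D5:**
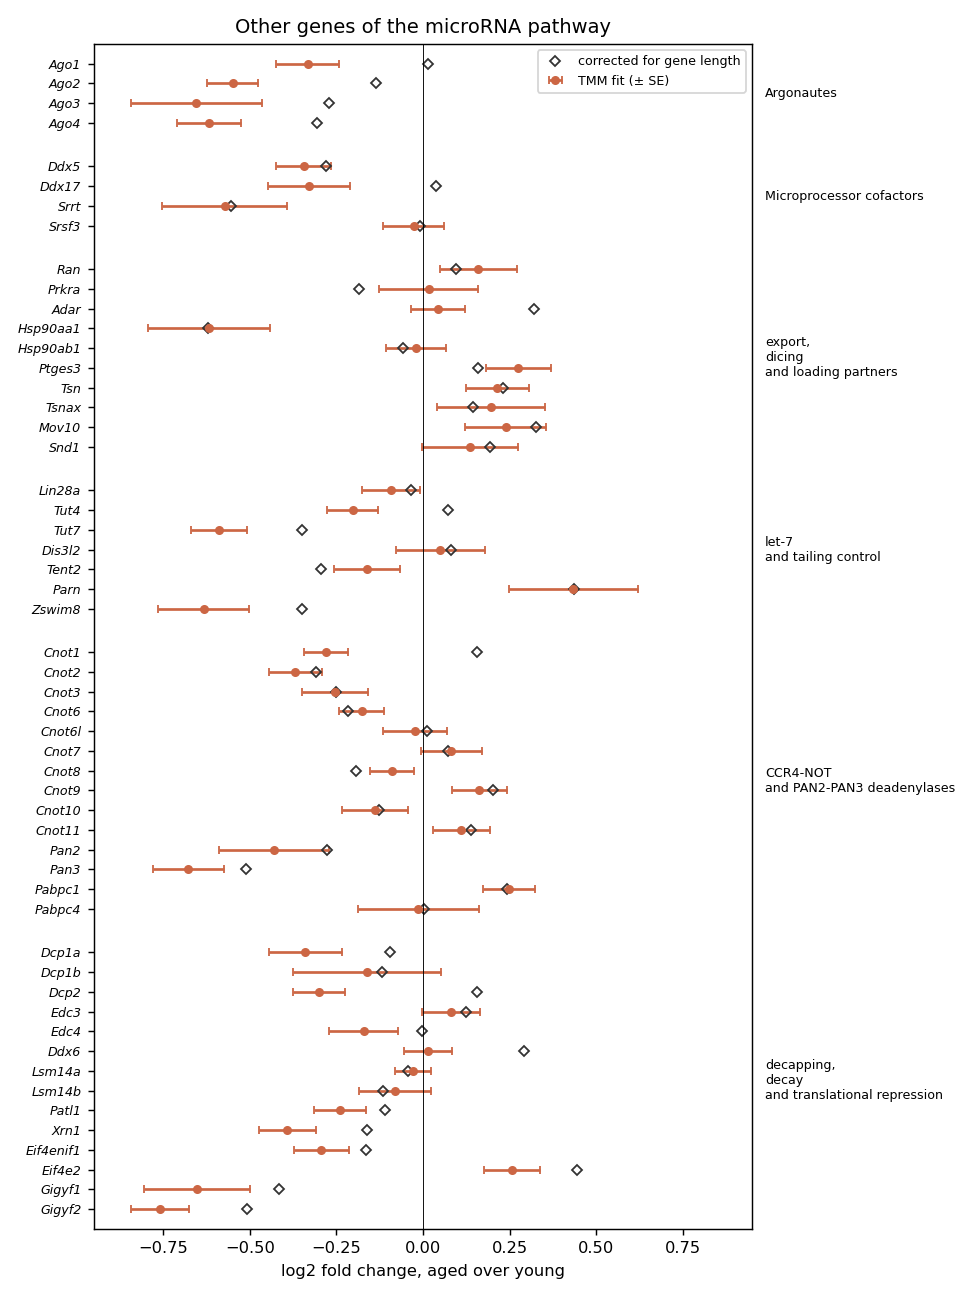
Log2 fold change of aged over young mice for the 53 other pathway genes by role, from the TMM fit with its SE (orange) and after the length correction (open diamonds). The 4 Argonautes are all left of 0 in the TMM fit and closer to 0 or past it after the correction, and Pan3 and Gigyf2 move to -0.51.

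The table also lists microRNA loci by name, 663 in all, of which 202 had a count and 13 passed the filter. In aged mice 7 of the 13 were lower and 1 was higher, where 23.0% of all genes were lower and 22.4% higher, and their median log2 fold change was -0.43. With length corrected for, 10 were lower and none was higher, where 16.5% of all genes were lower and 18.3% higher. The median was then -1.49, so the count and the size of these values depended on that setting. They have a median length of 98 bases, are counted in few fragments and mostly lie in introns, so fragments of the unspliced host transcript cannot be told apart from those of the hairpin precursor. The 3 with the smallest p-values were Mir1190, Mir1955 and Mir1931, whose mature sequences are shown with the seed in capitals.
miR-1190: uCAGCUGAgguuccccucuguc
miR-1955-5p: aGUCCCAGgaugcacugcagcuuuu
miR-1931: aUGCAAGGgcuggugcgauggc
No seed is shared among the 3. Mir1190, in an intron of Ccdc88c (chr12:101021673-101021793, minus strand), had 1.17 to 2.89 CPM in young and 0.557 to 1.0 CPM in aged mice, from 5 to 28 fragments. Its log2 fold change of -1.59 (edgeR adjusted p = 0.000252) stood beside -1.29 for the host. Mir1955, in an intron of Phf21a (chr2:92191977-92192074, plus strand), had a log2 fold change of -1.65 (edgeR adjusted p = 0.00188), beside -0.83 for the host. Mir1931, in an intron of Cdk17 (chr10:93162785-93162903, plus strand), had -1.40 (edgeR adjusted p = 0.00193), beside -0.48 for the host. In the 3 cases host and hairpin row were both lower in aged mice. Mir3064, Mir1962, Mir1894 and Mir1938 also shared a negative sign with their hosts. Other rows did not follow their host. Mir3058 was called lower (-0.61) beside 0.20 for its host Nudt4. Mir3109 (-0.10) and Mir7-1 (-0.01) were not called, while their hosts Anxa2 (0.46) and Hnrnpk (0.29) were called higher.

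The sorted cells were checked against markers of the cell types they could hold. The genes of neutrophil granules and surface (Ngp, Camp, Ltf, Mmp8, Mmp9, Cxcr2, Retnlg, Cd177) summed to 64315 to 88078 CPM in young and 82852 to 99174 CPM in aged mice, with 4 of 8 higher in aged mice, where 22.4% of all genes were. Of these, Cd177 was also called higher after the length correction, while Ngp, Camp and Retnlg were not (0.06, -0.06 and 0.02). The classical monocyte list summed to 4007 to 4192 CPM in young and 3417 to 4481 CPM in aged mice, most of it Itgam (CD11b), which neutrophils share. Mean levels in young and aged mice were 500 and 727 CPM for Ly6c2 (Ly6C), 134 and 141 CPM for Csf1r and 37.1 and 31.2 CPM for Ccr2. Of the 8 genes of this list, Ly6c2 was called higher (log2 fold change 0.54) and Itgam lower (-0.22), where 22.4% and 23.0% of all genes were. Neither was called after the length correction. The RNA thus held far more of the neutrophil than of the monocyte markers, against the monocytic label of the sort, and the levels above are those of the sorted cells as they were. Of the neutrophil list, Cxcr2 and Retnlg are also among the genes with which the study scored M-MDSCs. Sums over lists of different genes do not give shares of cells. Proliferation genes summed to 717 to 1325 CPM in young and 381 to 840 CPM in aged mice. Of these 9 genes, Mki67 and Top2a were lower, where 23.0% of all genes were, and the other 7 were not called. Top2a was not called after the length correction. Markers of dendritic cells (0.832 to 8.05 CPM), of T and NK cells (0.643 to 4.24 CPM), of erythroid cells (0.391 to 14.6 CPM, Hba-a1 at 0) and of B and plasma cells (11.4 to 84.7 CPM) were low in all mice. The part of these cell types in the values of the 8 genes was not tested.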

How the data were processed

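The authors isolated RNA from sorted M-MDSCs, prepared stranded TruSeq libraries and sequenced pairs on a NovaSeq. Per the file headers, the deposited counts are whole fragments per gene name from featureCounts 2.0.0 over exons of a UCSC annotation of mm10, on the reverse strand, with both ends mapped to 1 chromosome and a mapping quality of at least 60. Fragments over 2 genes were left out. The aligner is not given in the sources used here. Total counts per library are given in the report, and columns not used number 0. Groups came from the labels, and nothing ties the mice to litters or days. Every young mouse has a lower sample number in its alignment file name than any aged mouse, so if preparation followed these numbers, batch and age cannot be told apart.

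Counts were filtered (filterByExpr), scaled by TMM and fitted with edgeR 4.0.16 in R 4.3.3 (glmQLFit, glmQLFTest, Benjamini-Hochberg, 0.05) over all 12 mice. The biological coefficient of variation was 15.7%. No 2 libraries were alike within sampling noise (smallest chi-square per gene 1.72). The study used DESeq2, run here as an alternative (1.42.0) with limma-voom (3.58.1). The log2 CPM of the likeness measure used a prior count of 2. The length correction used a lowess curve (span 0.3) of each library's deviations on log2 length as an offset. The scripts were tested on simulated data. The 8 genes, the pathway and marker lists and the tests were chosen with earlier results of these data known.

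Named in the text are the 8 genes, all Argonautes, in each other role the largest called rise and fall, the smallest p and the genes not called where 5 or fewer, the 5 genes most like Tnrc6b, and the 3 called microRNA rows with the smallest p. Other pathway genes and microRNA rows named beside them were chosen after their values were seen. Sequences are from RefSeq (GRCm38.p6), in which all 8 genes were found. The listed names Eif2c1 to Eif2c4 were read as Ago1 to Ago4.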

Additional observations from a re-analysis of the deposited data

Results flagged for a closer look

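Dgcr8 in aged replicate 5 was at 9.89 CPM, well below the other aged mice at 14.96 to 17.6 CPM. The gap to the next mouse was 0.656 of the range of the 6 aged mice, above Dixon's 95% critical value. It was the only such sample in 60 groups examined over the named genes, and chance alone gives about 1 in 20. Without that mouse the log2 fold change of Dgcr8 was -0.43.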

How the results depend on the processing

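Under the other settings (DESeq2, limma-voom, library totals, upper quartile factors, other count filters, thinning to the smallest total, replicate block), the log2 fold changes of Tnrc6a, Tnrc6b, Tnrc6c and Dgcr8 kept their sign, with ranges over those and the length correction of -1.42 to -0.76, -1.32 to -0.28, -1.22 to -0.54 and -0.62 to -0.40. Leaving out 1 mouse gave -1.29 to -1.06, -1.21 to -1.11, -1.06 to -0.94 and -0.58 to -0.43. The number of the 8 genes past the threshold was 4 or 5 in all of them. Dicer1 was the gene lost under thinning, the length correction and 4 of the 12 leave-outs, and Dgcr8 under the replicate block. Since the rule used this contrast, these counts too are only a description. The length correction reversed Dicer1 (0.20), Ago1 (0.015), Ddx17 (0.037), Tut4 (0.074), Cnot1 (0.15, past the threshold) and Dcp2 (0.15). It gave 14 lower and 5 higher pathway genes and left 2 of the 5 genes most like Tnrc6b within the most like 1% of genes. The number of higher pathway genes was 1 with library totals and 2 to 5 when 1 mouse was left out, with 5 without aged replicate 4, and the cause was not tested. Library totals also raised the share of lower calls among all calls from 50.6% to 62.2% and shifted the median of all genes by -0.09. The mouse numbers 1, 2, 5 and 6 occur in both ages. Same-numbered mice did not deviate together (correlations -0.25 to -0.07). Pairs with different numbers were not compared, so whether mice share more than a number is unknown. With the mouse number as a replicate block, 3469 genes were called in place of 4425, 18 pathway genes were lower and 2 higher, and the median of the 8 genes was -0.58. A mouse whose number occurs in only 1 age adds nothing to the age effect in that fit, which therefore rests on numbers 1, 2, 5 and 6. Depth limits Drosha and Tarbp2, with as few as 11 and 15 fragments in a mouse.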

Other observations

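The following 2 microRNA loci were chosen after their values were seen. Mir142, the locus of a microRNA abundant in blood cells, had 12.1 to 19.3 CPM in young and 8.02 to 14.1 CPM in aged mice (log2 fold change -0.39, edgeR adjusted p = 0.0453). It was at -1.49 after the length correction (edgeR adjusted p = 0.00256), so the size of its value depended on that setting. Mir682, the only microRNA row higher in aged mice, had 3.16 to 7.98 CPM in young and 5.39 to 11.8 CPM in aged mice (log2 fold change 0.63, edgeR adjusted p = 0.0339). After the length correction Mir682 was at -0.29 and not called (edgeR adjusted p = 0.247). Mir22hg, the host transcript of miR-22, had means of 24.0 and 25.3 CPM and was not called.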
